A study of Mus musculus with 10 samples.

Results

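The Schlafen genes are a mouse family named for the growth arrest that its first members caused in thymocytes. The 7 members described here are Slfn1, Slfn2, Slfn3, Slfn4, Slfn5, Slfn8 and Slfn9. They were chosen by name, with earlier results of these data known. Each was read from the array feature that the platform annotation assigns to that symbol alone. All 7 of 7 had exactly 1 such feature, out of 19935 genes with a single-symbol feature, and all 7 were among the 16882 genes tested. Expression was measured in bone marrow derived macrophages (BMDMs) from Rac2-/- mice, which lack the hematopoietic GTPase Rac2, and from WT mice. The Rac2-/- line is kept in the C57BL/6J background with normal littermates as its WT, and the knockout is carried by every cell of the animal rather than by macrophages alone. Both groups were male and were cultured alike, in 20% serum and 16% oxygen, with macrophage colony stimulating factor at 50 ng/ml for 7 days and harvest on day 8. There were 5 Rac2-/- arrays and 5 WT arrays, numbered 1 to 5 in each group. The sources give 5 per group without saying that every array is a different mouse, so the p-values reflect array-to-array spread, which may be technical.

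Mouse Schlafen proteins fall into short, intermediate and long groups. Slfn1 and Slfn2 are short, Slfn3 and Slfn4 are intermediate, and Slfn5, Slfn8 and Slfn9 are long and carry a region related to RNA helicases. Type I interferon, which signals through the receptor chains Ifnar1 and Ifnar2, the kinases Jak1 and Tyk2, and a transcription complex that holds Stat2 and Irf9, induces many of them in myeloid cells. That complex binds a DNA element called the interferon-stimulated response element.

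The members lie side by side on chromosome 11. In RefSeq annotation of build GRCm38.p6 they run from base 82951349, the start of Slfn5, to base 83215154, the end of Slfn3, a stretch of 263.8 kb. RefSeq promoter windows, 250 bases before to 50 bases after a transcript start, were available for all 7 members. The core of the interferon-stimulated response element, taken as GAAA, any 2 bases and GAAA again, was searched on both strands. It stood in the windows of 3 of the 7 members, Slfn5, Slfn8 and Slfn9, and in those of 3.99% of all 27025 genes with a window. Stretches of these 3 promoters are shown because the long members alone held the match, with the matched letters in capitals. The Slfn5 stretch (chr11:82951937-82951966, plus strand) lies within the span annotated as the gene, upstream of the transcript start used. The Slfn8 stretch (chr11:83020831-83020890, minus strand) and the Slfn9 stretch (chr11:82991851-82991910, minus strand) are read 5′ to 3′ on the strand of the gene.
Slfn5: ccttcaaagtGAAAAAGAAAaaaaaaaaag
Slfn8: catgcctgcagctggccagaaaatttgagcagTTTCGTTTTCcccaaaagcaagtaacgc
Slfn9: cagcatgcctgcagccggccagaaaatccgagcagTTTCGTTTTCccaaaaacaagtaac
The matches began 155 bases before the start in Slfn5, 48 bases before it in Slfn8 and 45 bases before it in Slfn9. The Slfn8 and Slfn9 windows were identical at 246 of 300 aligned bases, 82.0%. No other pair of Schlafen windows was identical at more than 48.3% of its bases. The gamma-activated site TTCNNNGAA was in none of the member windows and in those of 9.55% of all genes.

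The short and intermediate members had no match to the response element core. Their promoters are shown for a different run of letters, CCAGGAAGT on the reverse strand, which contains the AGGAAGT box bound by ETS factors such as PU.1. This motif was chosen after the sequences had been seen. It was in the windows of all 4, of none of the 3 long members and of 0.999% of all genes. The shorter AGGAAGT, which overlaps it, was in the windows of 10.7% of all genes. The Slfn1 stretch is chr11:83116720-83116779, the Slfn2 stretch chr11:83065012-83065071, the Slfn3 stretch chr11:83191250-83191309 and the Slfn4 stretch chr11:83175086-83175145, all on the plus strand, with the match in capitals.
Slfn1: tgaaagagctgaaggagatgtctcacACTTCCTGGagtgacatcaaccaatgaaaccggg
Slfn2: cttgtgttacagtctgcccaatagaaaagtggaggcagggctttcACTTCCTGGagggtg
Slfn3: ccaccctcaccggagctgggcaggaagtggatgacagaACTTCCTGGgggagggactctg
Slfn4: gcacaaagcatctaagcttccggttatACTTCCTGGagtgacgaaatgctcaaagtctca
The match began 74 bases before the start in Slfn1, 73 bases in Slfn4, 55 bases in Slfn2 and 42 bases in Slfn3. The AP-1 site TGACTCA was in the window of 1 member, Slfn4, and in those of 5.95% of all genes. A match is a description of these letters, and binding was not measured.

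Values are log2 RMA signals, so a difference of 1 is a factor of 2, and they are compared only within a gene, since each feature has its own probes. Rac2 itself averaged 7.10 ± 0.29 in Rac2-/- arrays and 12.10 ± 0.27 in WT arrays (SD, n = 5 each), which is 3.12% of WT signal (limma adjusted p = 7.73e-07). Arrays 1 and 2 of both genotypes stood apart from arrays 3 to 5: whole-array correlations were 0.974 to 0.996 within these sets and 0.934 to 0.955 between them. The labels do not say what sets them apart, and both sets hold both genotypes. Array medians ran from 6.07 to 6.14. The 7 macrophage markers fixed for the label check were summed as signal, so the brightest weigh most. The log2 of this sum was 15.07 to 15.29 in Rac2-/- arrays and 15.10 to 15.34 in WT arrays. None of the 7 markers passed the test. Among them Cd68 (-0.22) and Fcgr1 (-0.74) were lower in every Rac2-/- array than in any WT array, as were 2.34% of all features. Itgam (0.33) was higher in every Rac2-/- array than in any WT array. The defining T cell markers averaged 6.30 in Rac2-/- and 6.25 in WT arrays for Cd3e, and 5.10 in Rac2-/- and 5.05 in WT arrays for Cd3d. Cd4, on the same list, averaged 10.16 in Rac2-/- and 10.10 in WT arrays. In Rac2-/- array 5 Cd4 was at 8.35, against 10.16 to 10.96 in the other Rac2-/- arrays.

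All 7 Schlafen genes had lower means in Rac2-/- BMDMs, and 5 of the 7 fell at an adjusted p under 0.05 (Slfn1, Slfn3, Slfn4, Slfn8 and Slfn9), whereas 1.11% of all features tested fell, 0.795% rose and 1.9% passed in either direction. Slfn4 and Slfn1 fell most, to 8.15% and 16.1% of their WT signal. In 6 of the 7, every Rac2-/- array lay below every WT array, which held for 2.34% of all features. With the array number as a block the count of members stayed at 5, where 3.03% of features fell, and with the array-number set as a term it was 7, where 4.36% fell. The median difference over the 7 was -1.10 on the log2 scale, beside -0.0003 over all features tested. The study named Slfn1, Slfn4 and Slfn9 from these same arrays, so their calls are not independent evidence of its list. In this bulk RNA, fewer cells of a type and less RNA per cell cannot be told apart.

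**Figure D1:**
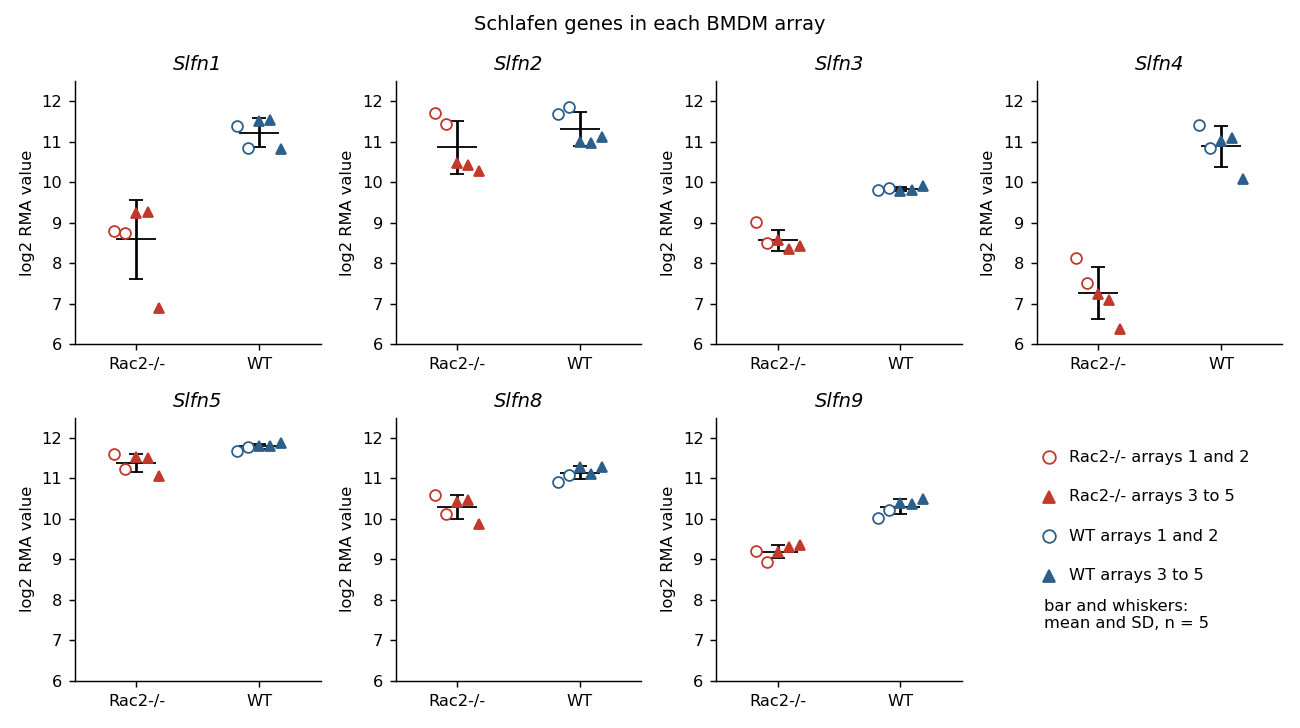
Log2 RMA value of each Schlafen gene in every array, Rac2-/- left of WT, with open circles for arrays 1 and 2, filled triangles for arrays 3 to 5, and bars and whiskers for the mean and SD of 5 arrays. The 2 genotypes are apart for every gene but Slfn2, whose values split by array number instead, and Slfn1 in Rac2-/- array 5 lies at 6.89, below all its other values.

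Slfn1, the short member whose forced expression arrests thymocyte growth, measured 8.80, 8.74, 9.25, 9.26 and 6.89 in Rac2-/- arrays 1 to 5, against 11.39, 10.84, 11.52, 11.54 and 10.82 in WT arrays 1 to 5. The groups did not overlap, and array 5 was the lowest of both genotypes. Slfn1 fell by 2.64 on the log2 scale in Rac2-/- BMDMs (SE 0.42, 95% interval -3.56 to -1.71, limma adjusted p = 0.0114). Without Rac2-/- array 5 the difference was -2.21 (SE 0.20, adjusted p = 8.77e-04). Within arrays 3 to 5 alone it was -2.83 with an adjusted p of 0.0555 by limma.

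Slfn2, the short member that keeps resting T cells and monocytes quiescent, was the exception. It measured 11.70, 11.45, 10.48, 10.43 and 10.29 in Rac2-/- arrays 1 to 5, against 11.69, 11.86, 10.99, 10.96 and 11.11 in WT arrays 1 to 5. The groups overlapped, since arrays 1 and 2 were high in both genotypes and arrays 3 to 5 were low in both. The difference was -0.45 (SE 0.31, 95% interval -1.15 to 0.24, limma adjusted p = 0.81). With the array-number set as a term in the fit, the same difference had an SE of 0.098 and passed the test (limma adjusted p = 0.0183). Within arrays 3 to 5 it was -0.62 (adjusted p = 0.0128, limma), and within arrays 1 and 2 it was -0.20 (adjusted p = 0.76, limma). In the same-numbered pairs Slfn2 was lower in the Rac2-/- array in 4 of 5, from -0.83 to 0.01.

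Slfn3, of the intermediate group, measured 9.01, 8.51, 8.56, 8.34 and 8.43 in Rac2-/- arrays 1 to 5. In WT arrays 1 to 5 it measured 9.80, 9.85, 9.80, 9.82 and 9.91. The WT arrays lay within a narrow band (SD 0.045) and every Rac2-/- array lay below it. Slfn3 fell by 1.26 in Rac2-/- BMDMs, to 41.6% of WT (SE 0.12, 95% interval -1.53 to -0.999, limma adjusted p = 6.56e-04).

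Slfn4, the other intermediate member, is an interferon-regulated gene of myeloid cells. It measured 8.13, 7.52, 7.23, 7.09 and 6.38 in Rac2-/- arrays 1 to 5, against 11.41, 10.84, 11.01, 11.10 and 10.07 in WT arrays 1 to 5. The highest Rac2-/- array was well below the lowest WT array, and array 5 was the lowest of each genotype. Slfn4 fell by 3.62 (SE 0.33, 95% interval -4.34 to -2.89, limma adjusted p = 5.32e-04), so that WT signal was 12.3 times that of Rac2-/- (95% interval 7.43 to 20.3). Among the 16882 genes tested, this difference was the 2nd lowest, and that of Slfn1 was number 4.

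Slfn5, Slfn8 and Slfn9 make up the long group. Slfn5 measured 11.60, 11.22, 11.52, 11.50 and 11.07 in Rac2-/- arrays 1 to 5, against 11.69, 11.77, 11.81, 11.81 and 11.88 in WT arrays 1 to 5. Every Rac2-/- array lay below every WT array, although Rac2-/- array 1 came close to WT array 1. The difference of -0.41 (SE 0.11, 95% interval -0.65 to -0.16) missed the test (limma adjusted p = 0.117). It passed with the array-number set as a term (adjusted p = 0.0393, limma). The exact permutation test of this gene alone gave p = 0.00794, two-sided, the smallest that 252 splits of 10 arrays allow.

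Slfn8, which lies next to Slfn9 and has a similar promoter, measured 10.60, 10.13, 10.43, 10.47 and 9.87 in Rac2-/- arrays 1 to 5. In WT arrays 1 to 5 it measured 10.91, 11.09, 11.29, 11.11 and 11.29. The groups did not overlap, with Rac2-/- array 5 the lowest. Slfn8 fell by 0.84, to 55.9% of WT (SE 0.14, 95% interval -1.16 to -0.52, limma adjusted p = 0.0172). Leaving out WT array 3, 4 or 5 moved its limma adjusted p to 0.0572, 0.0506 and 0.0535, above the threshold in each case.

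Slfn9 measured 9.20, 8.93, 9.19, 9.30 and 9.35 in Rac2-/- arrays 1 to 5, against 10.02, 10.22, 10.39, 10.36 and 10.51 in WT arrays 1 to 5. The spread was small in both groups, and array 5, low for Slfn1 and Slfn4, was the highest array of each genotype. Slfn9 fell by 1.10, to 46.6% of WT (SE 0.11, 95% interval -1.35 to -0.85, limma adjusted p = 0.00105).

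**Figure D2:**
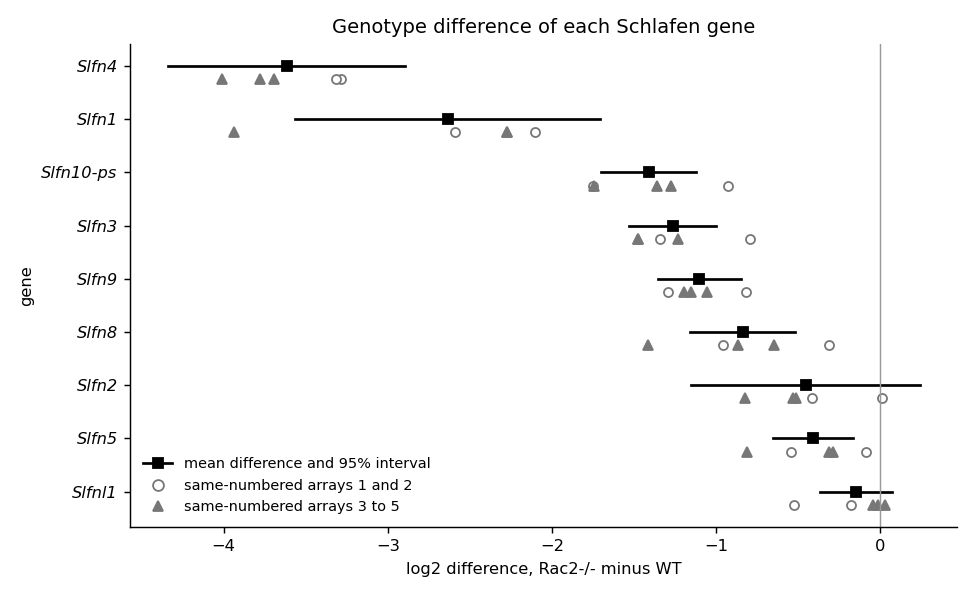
Log2 difference, Rac2-/- minus WT, of each Schlafen gene and of Slfn10-ps and Slfnl1, as squares with 95% intervals from limma, and the 5 same-numbered array differences below each as circles (arrays 1 and 2) and triangles (arrays 3 to 5). Slfn4 (-3.62) and Slfn1 (-2.64) lie apart from the other genes, and the intervals of Slfn2 and Slfnl1 include 0.

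In order of size the differences were Slfn4, Slfn1, Slfn3, Slfn9, Slfn8, Slfn2 and Slfn5. The interval of Slfn4 overlapped that of Slfn1, and those of Slfn3, Slfn9 and Slfn8 overlapped one another. The wide interval of Slfn2 overlapped those of Slfn3, Slfn9, Slfn8 and Slfn5. Differences between genes were not tested, because features differ in how far their signal follows the amount of RNA. Lower signal in the Rac2-/- array of all 5 same-numbered pairs was seen for 6 of the 7 members, and for 10.1% of all features.

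Other Schlafen sequences gave a split picture. Slfn10-ps, a pseudogene between Slfn8 and Slfn2, fell by 1.41 in Rac2-/- BMDMs (SE 0.13, limma adjusted p = 6.18e-04), with 8.34 to 8.76 in Rac2-/- arrays and 9.57 to 10.25 in WT arrays. Slfnl1, a more distant relative on chromosome 4, measured 5.99 to 6.45 in Rac2-/- arrays and 6.40 to 6.52 in WT arrays. These ranges overlapped, with a difference of -0.15 (SE 0.10, limma adjusted p = 0.804). Slfn5os, a transcript annotated antisense to Slfn5 and overlapping it, had a difference of -0.12 (SE 0.18, limma adjusted p = 0.999). Slfn14 was not analysed here. The family arose by gene duplication and probe sequences were not used here, so how far probes of one member or of Slfn10-ps pick up RNA of another was not tested.

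The genes beside the cluster were compared next. Of 55 genes annotated within 500 kb of it, 25 had a feature and 24 were tested. Of these, 1 fell, Heatr9 (-0.96, SE 0.17, limma adjusted p = 0.0177), and none rose. Over all features 1.11% fell. The median difference of the 24 was -0.09, and 18 had lower means in Rac2-/- arrays, against 50.1% of all features. The nearest neighbours did not pass the test: Unc45b, a myosin chaperone, differed by -0.06 and the transcript Unc45bos by -0.01 on the Slfn5 side. On the Slfn3 side Ap2b1, a clathrin adaptor subunit, differed by 0.15 and Rasl10b by -0.21. Their limma adjusted p-values were 0.499 to 0.999.

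The far flank holds CC chemokine genes. Ccl5 averaged 12.02 ± 0.82 in Rac2-/- and 12.84 ± 0.03 in WT arrays (SD, n = 5 each), a difference of -0.83 that missed the test (limma adjusted p = 0.376). Ccl4 averaged 7.71 ± 0.99 in Rac2-/- and 9.10 ± 0.86 in WT arrays (SD, n = 5 each), and its difference of -1.40 missed the test (limma adjusted p = 0.319). Ccl4 passed with the array number as a block (0.0128), with the array-number set as a term (0.00165) and within arrays 3 to 5 alone (0.00491), all by limma. Ccl3 differed by -0.39 (limma adjusted p = 0.0778). It passed with the array-number set as a term (0.0145) and within arrays 3 to 5 alone (0.0498), both by limma. For Ccl3, Ccl5 and Heatr9 every Rac2-/- array lay below every WT array. That made 3 of the 24 flanking genes tested, against 2.34% of all features. Ccl6 and Ccl9 differed by -0.04 and 0.03 (limma adjusted p = 0.999 each). With the block, 2 flanking genes were called, both lower, where 3.03% of all features fell. Heatr9 lost its call without WT array 2, 3 or 5, which left 0 flanking genes called.

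**Figure D3:**
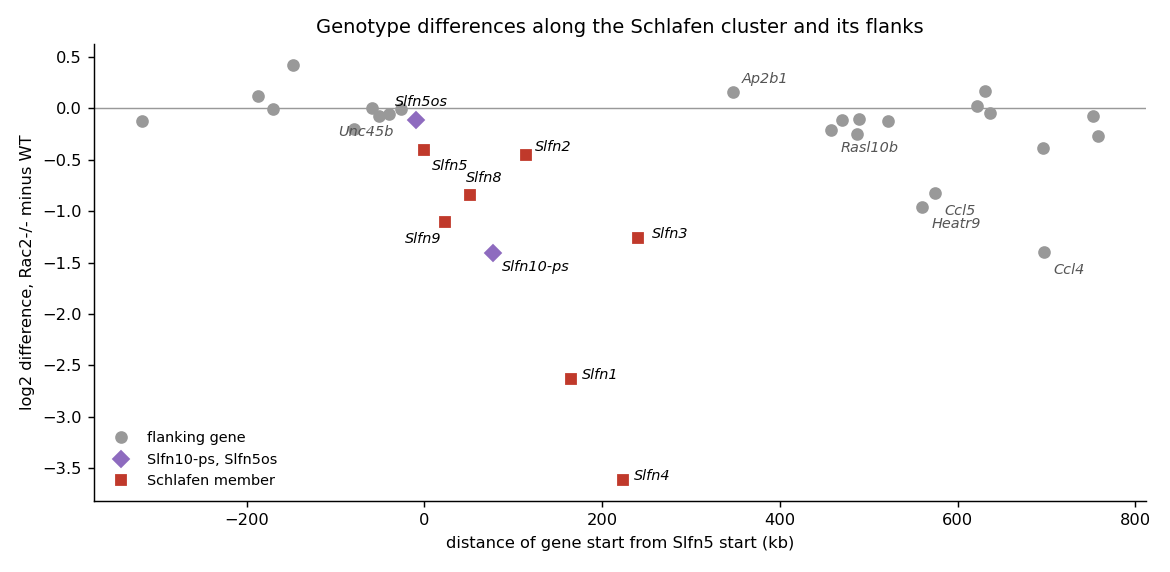
Log2 difference, Rac2-/- minus WT, of each gene against the distance of its start from the start of Slfn5 in kb, with red squares for the Schlafen members, purple diamonds for Slfn10-ps and Slfn5os, and grey circles for flanking genes. The members lie below 0, down to -3.62 for Slfn4, while the genes next to them, Unc45b and Ap2b1, lie at -0.06 and 0.15.

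Interferon-response genes were examined because many Schlafen genes belong to that response. The list was drawn up with earlier results of these data known, so its counts are not independent evidence. Of 34 listed genes, 31 were tested, and the other 3 were not analysed here. The list does not hold every interferon-induced gene. Ifi27l1, which is outside it, was reported by the study as higher in Rac2-/- BMDMs. In Rac2-/- BMDMs 13 of the 31 fell and 0 rose, where 1.11% of all features fell and 0.795% rose. Lower means were seen for 29, against 50.1% of all features, and the median difference was -0.73. In 18 every Rac2-/- array lay below every WT array, which held for 2.34% of all features. With the array-number set as a term, 21 fell and 1, Jak1, rose, where 4.36% of all features fell. Without one array the count was between 3 and 18: it was 8, 5, 3, 4 and 5 without WT arrays 1 to 5, and 7, 6 and 6 without Rac2-/- arrays 2 to 4. In the same fits 4 or 5 of the 7 Schlafen members were called.

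Among the genes of the antiviral effector class, Mx1, which belongs to a GTPase family, fell by 1.82 (SE 0.34, limma adjusted p = 0.0259). It measured 10.27, 8.64, 8.82, 8.57 and 8.21 in Rac2-/- arrays 1 to 5, against 10.74, 11.21, 10.53, 10.40 and 10.74 in WT arrays 1 to 5. Rac2-/- array 1 was the high one and lay just under the lowest WT array. Mx1 missed the test in 9 of the 10 limma fits that left out one array, with adjusted p-values up to 0.0767.

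Other effectors that fell were Oasl1, a translational brake on Irf7 (-1.66), Cmpk2, a mitochondrial nucleotide kinase (-1.52), Rsad2, the antiviral enzyme viperin (-1.41), Oas3, which makes oligoadenylates (-1.08), and Ifit1 and Ifit3, which act on viral RNA (-0.83 and -0.73). Rsad2 and Cmpk2 passed the test in all 10 fits that left out one array. Ifit1 passed in 9 of these fits, Oasl1 in 8, Ifit3 in 5 and Oas3 in 4. Herc6, a ligase of the ubiquitin-like protein Isg15, fell by 0.97 and passed in 2 of the 10 fits. Cxcl10, a T cell chemokine, had a difference of -1.37 that missed the test (limma adjusted p = 0.0743), and its Rac2-/- array 1, at 12.20, lay within the WT range.

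Of the sensors and regulators, Ifih1 and Dhx58, which detect viral RNA, fell by 0.63 and 0.72. Zbp1, a sensor of left-handed nucleic acids, fell by 1.05. Stat2, a subunit of the interferon transcription complex, fell by 0.79, and Usp18, which removes Isg15 and restrains the receptor, fell by 1.05. In the 10 fits that left out one array, Usp18 passed the test in all 10. Ifih1 passed in 3, and Dhx58, Zbp1 and Stat2 in 2 each. The receptor chains and kinases did not pass the test: Ifnar1 differed by 0.12, Ifnar2 by -0.05, Tyk2 by -0.24 and Jak1 by 0.23, with limma adjusted p-values of 0.174 to 0.999. Tyk2 had no overlap between groups, with 8.65 to 8.87 in Rac2-/- and 8.95 to 9.11 in WT arrays, and was called lower with the array-number set as a term (limma adjusted p = 0.0399). Irf9 differed by -0.09 (limma adjusted p = 0.946). The response element core was in the promoter windows of 12 of the 25 listed genes that had one, 48.0%, against 3 of 7 Schlafen members.

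**Figure D4:**
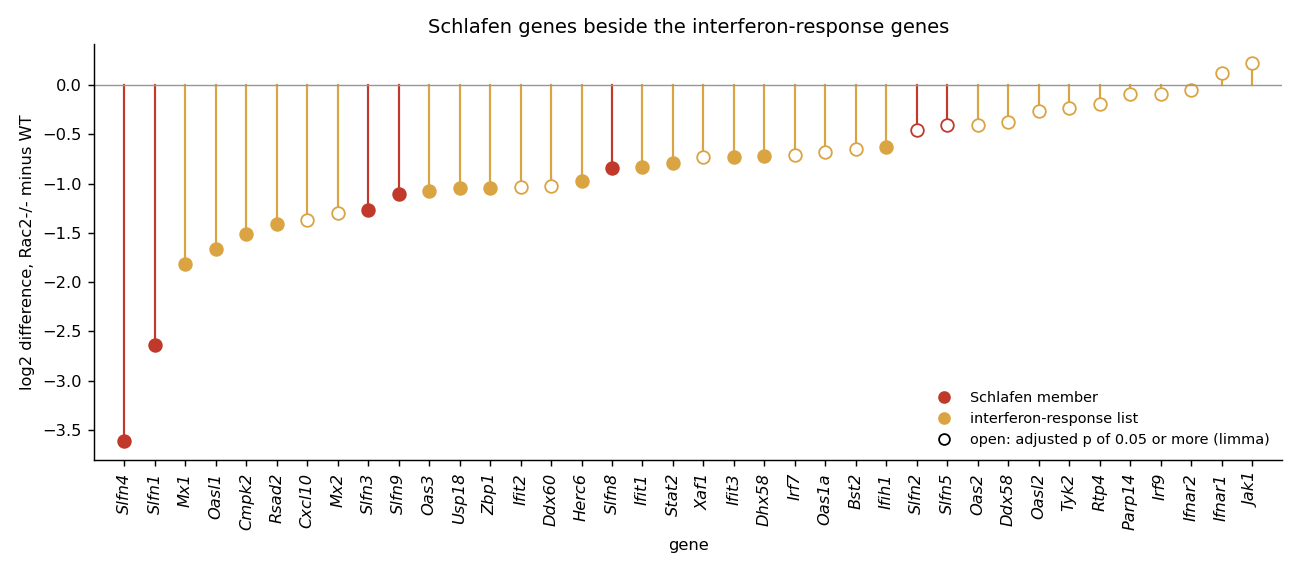
Log2 difference, Rac2-/- minus WT, of the 7 Schlafen genes (red) and the 31 tested genes of the interferon-response list (yellow), in order of size, with open circles where the limma adjusted p was 0.05 or more. Slfn4 and Slfn1 have the lowest values, at -3.62 and -2.64, ahead of Mx1 at -1.82.

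Plac8, a gene of inflammatory monocytes on the list of other cell types, was also lower in Rac2-/- arrays. It measured 7.72, 8.72, 8.67, 8.36 and 6.52 in Rac2-/- arrays 1 to 5, against 11.05, 10.12, 10.65, 10.57 and 9.41 in WT arrays 1 to 5. The groups did not overlap, and array 5 was the lowest of each genotype, as for Slfn4. Rac2-/- array 1, the highest Rac2-/- array for Slfn4, was the next lowest for Plac8. Plac8 fell by 2.36 (SE 0.44, limma adjusted p = 0.0257). The other monocyte gene tested, Ccr2, the chemokine receptor by which monocytes leave marrow, averaged 10.42 ± 0.37 in Rac2-/- and 10.56 ± 0.40 in WT arrays (SD, n = 5 each), with a limma adjusted p of 0.999.

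Of 34 listed markers of T cells, B cells, NK cells, monocytes, neutrophils, mast cells and basophils, dendritic cells and fibroblasts, 30 had a feature, 24 were tested and 1, Plac8, fell. Over all features 1.11% fell. The median difference of these markers was -0.21. The log2 of the summed signal of the list ran from 12.09 to 12.74 in Rac2-/- arrays and from 12.25 to 13.29 in WT arrays. With the array number as a block, 3 of these markers fell and 0 rose, where 3.03% of all features fell. The 3 were Plac8, the plasmacytoid cell gene Siglech and the fibroblast gene Dcn. Of the 7 macrophage markers, the Fc receptor Fcgr1 was called lower with the block and the integrin Itgam higher. Plac8 was not called without WT array 1, 2, 3 or 4 or without Rac2-/- array 4, which left 0 markers called. The part of these cells in the Schlafen differences was not tested.

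The split by array number touched 2 members at an adjusted p under 0.05, where 46.9% of all features passed, 22.5% lower and 24.4% higher in arrays 3 to 5. Slfn2 was 0.97 lower in arrays 3 to 5 than in arrays 1 and 2 (SE 0.10, limma adjusted p = 2.78e-05), with means of 10.40 in arrays 3 to 5 and 11.58 in arrays 1 and 2 of Rac2-/-. In WT the means were 11.02 in arrays 3 to 5 and 11.78 in arrays 1 and 2. Slfn9 was 0.26 higher in arrays 3 to 5 (SE 0.076, limma adjusted p = 0.0185). For Slfn4 the difference of -0.66 missed the test (limma adjusted p = 0.0632), and Slfn1, Slfn3, Slfn5 and Slfn8 had adjusted p-values of 0.27 to 0.924 by limma.

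The genotype difference was larger in size in arrays 3 to 5 than in arrays 1 and 2 for all 7 members. How many of all features did the same was not counted. Members tended to vary together, so these are not 7 separate observations. The difference was -3.83 in arrays 3 to 5 and -3.30 in arrays 1 and 2 for Slfn4. For Slfn8 it was -0.97 in arrays 3 to 5 and -0.63 in arrays 1 and 2, and for Slfn3 it was -1.39 in arrays 3 to 5 and -1.07 in arrays 1 and 2. Slfn9 was nearly level, at -1.13 in arrays 3 to 5 and -1.06 in arrays 1 and 2. None of these changes between sets passed the limma interaction test, in which 0 members and 0% of features were called. At an unadjusted p under 0.05 there were 1560 features and 1 member, Slfn2. Arrays 1 and 2 alone called 0 members and 0.0037% of features as lower, and arrays 3 to 5 alone called 5, as Slfn2 entered and Slfn1 dropped out. In arrays 3 to 5, 3.04% of features fell.

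Members were also correlated with one another once the means of genotype and array-number set were removed. Over the 10 arrays, 19 of the 21 pairs of members had a correlation above 0, with a median of 0.552. Slfn5 and Slfn8 varied most alike (r = 0.961), followed by Slfn2 and Slfn3 (0.82), while Slfn1 and Slfn9 had the lowest value (-0.41). These correlations describe 10 arrays and were not tested, and those of other sets of genes were not computed. The best of 16875 other genes reached 0.965 to 0.989 with a member on this scale. The means were removed additively, so a genotype difference that changed between the sets stays in the residuals. On this residual scale Rac2-/- array 1 was the highest Rac2-/- array for 6 of the 7 members, and Rac2-/- array 5 was the lowest for 5. In the WT group array 1 was the lowest for 5 members and array 5 the highest for 4.

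**Figure D5:**
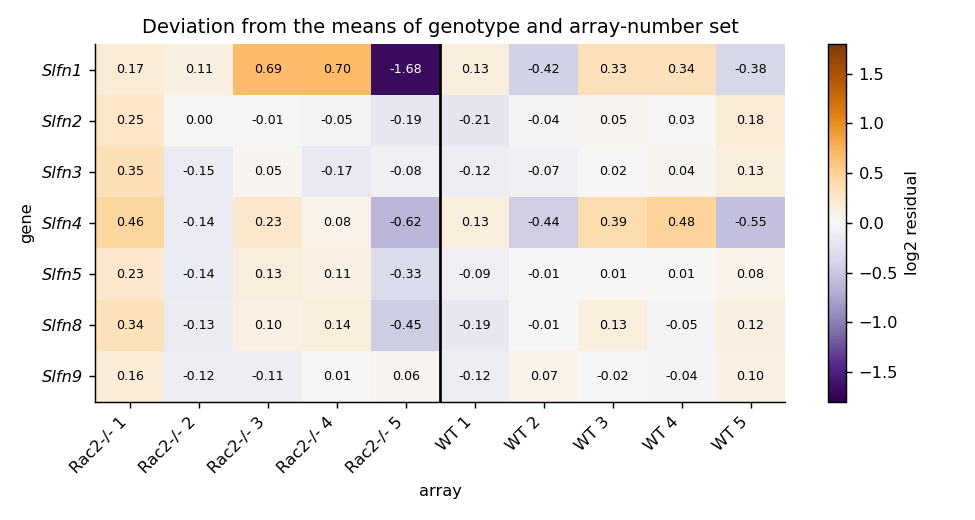
Deviation of each Schlafen gene in each array, in log2 units, after the means of genotype and array-number set were taken out, with Rac2-/- arrays left of the line and WT arrays right of it. Slfn1 in Rac2-/- array 5 lies lowest, at -1.68, and Slfn4 (-0.625) and Slfn8 (-0.45) are also low there, while Slfn9 (0.06) is not.

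Genes elsewhere in the genome with the most similar pattern were ranked by Pearson correlation over the 10 arrays among 16875 genes. Any gene with a clear genotype difference scores high on this measure, since the arrays form 2 genotype groups. For Slfn4 the closest were G530011O06Rik on the X chromosome (r = 0.994), Ms4a4b (0.989) and D730005E14Rik (0.984). For Slfn1 they were Il18bp, which binds and blocks interleukin 18 (0.982), Calhm6 (0.977) and Oasl1 (0.973). For Slfn3 they were Fndc3a (0.984), Naa25 (0.981) and Cmpk2 (0.979).

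For Slfn5 the closest genes were Znfx1 (0.986), Ifih1 (0.977) and Trim30a (0.977), and for Slfn8 Ifih1 (0.994), Parp12 (0.986) and Nod1, a receptor for bacterial peptidoglycan (0.984). For Slfn9 they were Brcc3 (0.985), Tmem171 (0.983) and Slfn10-ps (0.983). Slfn2, with its split by array number, was closest to Fggy (0.993), Pmaip1 (0.992) and G3bp2 (0.992).

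After genotype and array-number set were taken out, 2 of these genes stayed first: G530011O06Rik for Slfn4 (residual r = 0.98) and Znfx1 for Slfn5 (0.989). The other leaders differed, with H2-Ab1 for Slfn1 (0.989), Hoga1 for Slfn2 (0.974), Fbxo25 for Slfn3 (0.98), Mbd1 for Slfn8 (0.982) and Niban2 for Slfn9 (0.965). H2-Ab1, a chain of the class II antigen presenting molecule, differed by 0.46 between genotypes and missed the test (limma adjusted p = 0.867). Its r with Slfn1 before removal was 0.0386. The Slfn1 residual was -1.68 in Rac2-/- array 5 and -0.416 to 0.699 in the other arrays. That array therefore weighs most in residual correlations with Slfn1. G530011O06Rik fell by 2.55 in Rac2-/- BMDMs (limma adjusted p = 0.00223).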

How the data were processed

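RNA of 10 BMDM samples was hybridised to 1-colour Affymetrix whole-transcript arrays. The deposited values are log2 signals that the authors made by RMA. Its version is not given. The methods also name a batch adjustment by ComBat, without the batches and without saying whether the deposited values carry it. Groups and array numbers came from the sample titles. Of 34760 features, 21640 carry 1 symbol, 1321 several and 11799 none. Older symbols were updated through Entrez identifiers (21553 features). Features were ranked by the level reached in at least 4 arrays, and the top 27031, the number the methods state, were tested (4.73 or more).

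Genotypes were compared with limma 3.58.1 in R 4.3.3 (lmFit and eBayes, no block), with Benjamini-Hochberg adjustment over all 27031 features and a threshold of 0.05. Intervals are 95%. A gene was called lower or higher by that test. Single genes also had an exact two-sided permutation test over 252 splits. On simulated data this fit recovered 63% of log2 differences of 1 and 89% of differences of 2, with 6 false calls. Depth has no counterpart on arrays, and the number of arrays limits the precision.

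Same-numbered arrays of both genotypes deviated together from their group means (r = 0.493 to 0.716). Arrays of other numbers in the same set correlated as much (0.476 to 0.724), so these values do not show that the numbers are pairs. Same-numbered differences and a fit with the number as a block are given beside the main fit as alternatives. Other alternatives were the filter, a term for arrays 1 and 2 against 3 to 5, an own ComBat on that split, each set alone, trended and robust variance, array weights, quantile normalisation, median centring, the mean of a gene's features, and leaving out each array in turn.

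The members and gene lists were chosen with earlier results of these data known. Named genes were the 7 members, the other Schlafen genes, Rac2, the 3 genes most correlated with each member before and after genotype and set means were removed (after removal, only the first is printed), the interferon-response genes past the test and the 5 with the largest differences, flanking genes past the test and the 2 nearest on each side, and the defining markers. Ccl3, Ccl4, Ccl5, Ccl6, Ccl9, Siglech, Dcn, Fcgr1, Itgam, Cd4, Cd68, Ccr2, Irf9, Ifit2, Mx2, Oas1a, Ddx60 and the interferon receptor genes were named besides. Promoter sequences came from RefSeq, build GRCm38.p6.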

Additional observations from a re-analysis of the deposited data

Results flagged for a closer look

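In 90 groups of 5 arrays, the gap between the end array and its neighbour was set against the range of the group. In 9 of them it was above Dixon's 95% limit of 0.71, which chance exceeds in about 1 group in 20. Of the 9, 5 were low values in Rac2-/- array 5. Slfn1 was at 6.89 there (8.74 to 9.26 in the other Rac2-/- arrays), Oas3 at 9.82 (10.78 to 10.98), Oasl1 at 8.67 (10.08 to 10.33), Il18bp at 8.15 (9.10 to 9.37) and Calhm6 at 7.62 (8.30 to 8.54). Oasl1, Il18bp and Calhm6 are the genes most correlated with Slfn1, so their flags are not separate from its own. The proliferation gene Mki67, picked after its values were seen, was at 10.51 in that array and at 6.85 to 7.82 in the other Rac2-/- arrays. Its part in the Schlafen values was not tested. Without this array Slfn1, Slfn3, Slfn4, Slfn8 and Slfn9 all passed the test, and Slfn2 and Slfn5 did not.

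In WT array 1, Ifit3 was at 12.18 (12.34 to 12.40 in the other WT arrays) and Naa25 at 9.53 (9.75 to 9.82). Fndc3a was at 10.54 in Rac2-/- array 1 (10.16 to 10.26 in the others). Brcc3 was at 9.43 in Rac2-/- array 2 (9.49 to 9.51 in the others).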

How the results depend on the processing

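All 7 members kept their direction in 22 alternative fits each, and 5 of 7 were called in the fit without a block. With the replicate number as a block the count of members stayed at 5, all features called went to 1716 (514 without the block), interferon-response genes to 17 (13 without it), flanking genes to 2 and cell type markers to 5. Ccl4, Siglech, Dcn, Fcgr1, Itgam, Fggy, Pmaip1 and the interferon-response genes Ifit2, Mx2, Oas1a and Ddx60 were called with the block and not without it. Slfn2 and Slfn5 were also called after ComBat, and Slfn5 with array weights. With a term for the array-number set, 2524 features, 22 interferon-response genes, 5 flanking genes and 5 markers were called, and ComBat on that split called 4386 features and 25 interferon-response genes. Arrays 1 and 2 alone called 2 features, 0 members and 0 interferon-response genes, with fewer arrays, and arrays 3 to 5 alone called 1487 features. Array weights called 1811 features and 20 interferon-response genes. The cause of these changes was not tested. Leaving out each array gave 245 to 625 features, 4 to 5 members, 3 to 18 interferon-response genes, 0 to 1 flanking genes and 0 to 1 markers. For the split by array number, 1 member was called after quantile normalisation, and 1 to 3 when an array was left out.

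The sign turned for 2 genes near 0, neither called. Unc45b was at 0.0584 within arrays 3 to 5, at 0.0655 with array weights and at -0.12 to 0.0284 over the fits without one array. Unc45bos was at 0.0476 within arrays 3 to 5, 0.0658 with array weights, 0.0038 after quantile normalisation, 0.0094 after median centring and -0.12 to 0.14 without one array. With 5 arrays a group, 63% of simulated log2 differences of 1 were recovered, and smaller ones, such as those of Slfn2 and Slfn5, were not simulated.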
